A study of Mus musculus with 7 samples.

Results

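The genes described are 35 genes of pyruvate metabolism and the tricarboxylic acid (TCA) cycle, chosen by symbol from 46603 Ensembl genes with read counts, and all 35 passed the filter on low counts. They were measured by RNA sequencing in 3 pieces of KO tumor and 4 pieces of KO+NM1 tumor. Both tumors grew from injected mouse embryonic fibroblasts in Balb/c nude mice, all female and aged 16 weeks. The labels give 30 days and the right flank, whereas the methods of the study give a shorter time and its results name the mammary pad as the site. The KO cells lack nuclear myosin 1 (NM1), an isoform of the motor protein Myo1c, after CRISPR/Cas9 editing. The KO+NM1 cells are the same knockout line, so they carry the same deletion, with NM1 tagged with HA and V5 returned by a lentivirus under Neomycin selection and tested as single clones. The comparison asks how transcripts for the use of pyruvate differed between tumors formed without NM1 and tumors formed after its return. The labels read as if 1 tumor of each kind was cut up, in which case p-values measure only the spread between pieces and none between mice.

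Pyruvate, the end product of glycolysis, enters the mitochondrial matrix through a carrier made of Mpc1 and Mpc2. There the pyruvate dehydrogenase complex turns it into acetyl-CoA, and pyruvate carboxylase turns it into oxaloacetate. The cycle oxidizes acetyl-CoA and feeds electrons to the respiratory chain, while cytosolic enzymes use citrate, malate and oxaloacetate for fatty acid synthesis, NADPH and glyceroneogenesis, pathways for which fat tissue is known.

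Total counts on genes were between 24088309 and 28326568 per piece. Mitochondrially encoded transcripts took 1.81% to 2.14% of them in the KO pieces, against 5.11%, 10.5%, 18.5% and 7.77% in KO+NM1 pieces 01 to 04. The targeted gene Myo1c had 313, 289 and 306 CPM (counts scaled to library size by TMM) in the KO pieces against 438, 408, 406 and 382 CPM after NM1 was returned, which is a log2 fold change of -0.43 (SE 0.13, edgeR adjusted p = 0.031). Gene counts do not separate NM1 from the other Myo1c isoforms, nor injected cells from host mouse cells. The pieces held transcripts of different tissues. All 8 white adipocyte markers were lower in the KO pieces, with a summed level of 32.9 to 185 CPM against 3970 to 30459 CPM, and all 10 skeletal muscle markers were higher, with 2671 to 22081 CPM against 20.6 to 75.6 CPM. The defining fat marker Adipoq had 0.40 to 9.18 CPM in the KO pieces and 235 to 2072 CPM in the KO+NM1 pieces. Ckm, which defines muscle, had 174 to 1490 CPM in the KO pieces and was below the limit that a count of 0 allows in every KO+NM1 piece (at most 0.0814 CPM, with limits of 0.109 to 0.148 CPM that cover counting error only). Of the fibroblast markers, 2 of 6 were lower in the KO pieces, 4 were not called, and their sums overlapped (7107 to 12830 CPM against 2677 to 12310 CPM), while all 4 genes of dividing cells were higher (1302 to 1797 CPM against 12.6 to 55.3 CPM). In such bulk tissue, fewer cells of a type and less RNA per cell cannot be told apart.

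Most of the 35 genes were lower in the KO pieces. Past both an edgeR adjusted p of 0.05 and a 2-fold difference, 20 were lower and 4 were higher, and 11 were not called. Over all 16887 genes tested, 20.3% were called lower, 17.1% higher and 37.3% in either direction by both criteria. The adjusted p alone called the same number of members, 20 lower and 4 higher, against 24.5% lower, 25.7% higher and 50.2% in either direction over all genes. The groups did not overlap for 27 members, with the KO pieces below for 23 and above for 4. Among all genes tested, 57.0% did not overlap, with the KO pieces below for 26.4% and above for 30.5%. The median log2 fold change, KO minus KO+NM1, was -1.34 over the members and 0.00 over all genes tested. The 4 members that were higher were the kinase Pdk3, the mitochondrial malic enzyme Me2, and both aspartate aminotransferases, Got1 and Got2.

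**Figure D1:**
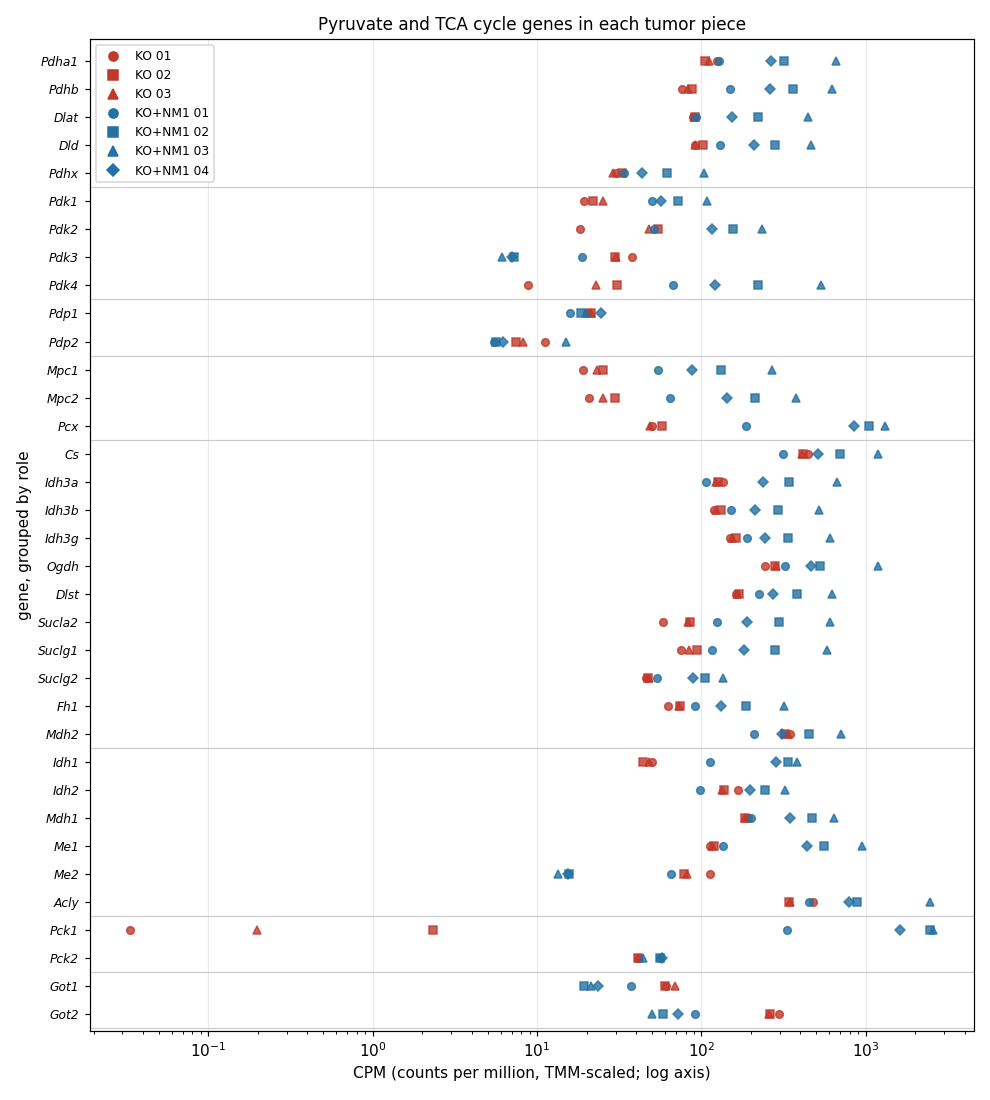
Level of each of the 35 genes in each piece, in CPM on a log axis, with genes grouped by role, the 3 KO pieces in one color and the 4 KO+NM1 pieces in another. The KO pieces sit left of the KO+NM1 pieces for 23 genes and right of them for 4, and Pck1 spans the widest range, from 0.0333 to 2575 CPM.

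The number called depended on the libraries. By both criteria it was 10 without KO piece 01, 11 without KO piece 02 and 11 without KO piece 03. It was 14 without KO+NM1 piece 02, but 30 without KO+NM1 piece 01. Over all genes, the adjusted p alone called 8477 of 16887 with all pieces. That count was 6163 of 17411 without KO piece 01 and 6614 of 17368 without KO piece 02. Without KO piece 03 it was 6189 of 17385, and without KO+NM1 piece 02 it was 6736 of 16547. Without KO+NM1 piece 01 it was 11937 of 16617. The count over all genes thus moved in the same directions as the count of members. Members were counted here by both criteria and all genes by the adjusted p alone, so the shares called cannot be compared. With every alternative, leaving out pieces included, 9 members stayed called at the adjusted p in the same direction, namely Pdhb, Pdk1, Pdk4, Mpc1, Mpc2, Pcx, Idh1, Pck1 and Got2 (Pck1 was not tested under 1 filter).

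The letters upstream of 4 of these genes are shown because they moved in opposite directions: Pck1 and Pdk4, which had the largest falls of their families, and Pdk3 and Got1, which rose. The windows are from RefSeq on GRCm38.p6 and were found for 32 of the 35 genes, with none for Pdp1, Idh3a or Me2. Each run is 5′ to 3′ on the strand of the gene, begins 250 bases before the RefSeq start, and ends at that start or at the GENCODE start where this comes first. Pck1 is at chr2:173152823-173153047 on the plus strand, Pdk4 at chr6:5496310-5496528 on the minus strand, Pdk3 at chrX:93832202-93832400 on the minus strand and Got1 at chr19:43524606-43524855 on the minus strand. Capitals mark matches, on either strand, to the CCAAT box (CCAAT), the nuclear receptor half-site (AGGTCA), the E-box (CACGTG) and the cAMP response element half-site (TGACGT), and no matches overlap in these runs.
Pck1: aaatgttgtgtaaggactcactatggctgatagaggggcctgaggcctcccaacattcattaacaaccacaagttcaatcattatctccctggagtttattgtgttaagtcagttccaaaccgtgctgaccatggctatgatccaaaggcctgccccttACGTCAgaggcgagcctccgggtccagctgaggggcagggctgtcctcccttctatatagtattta
Pdk4: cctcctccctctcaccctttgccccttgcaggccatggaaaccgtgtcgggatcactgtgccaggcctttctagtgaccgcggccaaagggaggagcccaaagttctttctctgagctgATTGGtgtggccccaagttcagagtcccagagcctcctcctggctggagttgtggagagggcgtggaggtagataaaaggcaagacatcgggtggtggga
Pdk3: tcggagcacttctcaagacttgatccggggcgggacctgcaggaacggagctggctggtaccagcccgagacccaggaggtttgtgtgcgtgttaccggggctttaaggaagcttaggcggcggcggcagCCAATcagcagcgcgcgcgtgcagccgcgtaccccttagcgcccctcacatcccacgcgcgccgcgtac
Got1: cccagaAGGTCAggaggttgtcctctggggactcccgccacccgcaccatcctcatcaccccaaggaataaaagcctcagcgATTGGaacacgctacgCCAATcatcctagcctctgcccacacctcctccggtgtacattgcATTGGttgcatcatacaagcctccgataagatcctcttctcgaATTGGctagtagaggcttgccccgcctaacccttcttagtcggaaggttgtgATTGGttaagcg
Got1 held 5 matches to CCAAT in this run and 1 to AGGTCA, whereas Pck1 held a single match, to the cAMP response element half-site, 91 to 86 bases before its RefSeq start. In Pdk4 the CCAAT match lay 131 to 127 bases and in Pdk3 120 to 116 bases before the RefSeq start, in opposite orientation. Over windows of 300 bases (250 before and 50 after the start), CCAAT was in 21 of 32 members and in 37.4% of all 32851 windows, AGGTCA in 6 members and in 16.3%, CACGTG in 3 members and in 7.15%, and TGACGT in 8 members and in 7.51%. Each of these members had 1 window, at the RefSeq start nearest its GENCODE start. The percentages are over every window without that choice, so members and background were not picked alike. A match describes the letters and is not evidence of a bound factor.

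The 5 pyruvate dehydrogenase subunit genes were each lower in every KO piece than in every KO+NM1 piece, and 3 of the 5 fell. Pdhb, the beta subunit of the E1 enzyme that decarboxylates pyruvate, had 75.7, 87.4 and 82.3 CPM in KO pieces 01 to 03 and 150, 359, 623 and 261 CPM in KO+NM1 pieces 01 to 04. Its log2 fold change of -2.09 (SE 0.44, edgeR adjusted p = 0.00928) was the largest fall of the complex. Pdha1, the alpha subunit that the kinases phosphorylate, had 124, 105 and 111 CPM against 128, 319, 654 and 263 CPM. KO+NM1 piece 01 was thus just above the highest KO piece, and the log2 fold change was -1.59 (SE 0.49, edgeR adjusted p = 0.0365). Dld, the E3 subunit shared with other dehydrogenase complexes, had 95.2 ± 5.91 CPM (SD, n = 3) against 271 ± 143 CPM (SD, n = 4), with a log2 fold change of -1.51 (SE 0.40, edgeR adjusted p = 0.0205). Dlat, the E2 core, had 89.7 ± 1.37 CPM against 227 ± 153 CPM (log2 fold change -1.34, SE 0.49), and Pdhx, which tethers E3 to the core, 30.7 ± 1.86 CPM against 60.7 ± 30.5 CPM (-0.98, SE 0.36). Neither passed the threshold (edgeR adjusted p = 0.0608 and 0.0636). Pdha1 shares 603 exon bases with Map3k15 on the other strand, and the strand setting of the counting is not given in the sources used here.

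The 4 pyruvate dehydrogenase kinases, which switch the complex off by phosphorylation, did not change together, since 3 fell and Pdk3 rose. Pdk4, the kinase induced by fasting and fatty acids, had 8.77, 30.5 and 22.9 CPM in the KO pieces and 67.3, 220, 534 and 120 CPM in the KO+NM1 pieces. It had the largest fall of the family, a log2 fold change of -3.51 (SE 0.73, edgeR adjusted p = 0.0123). Pdk1 had 19.3, 21.9 and 25.0 CPM against 49.9, 71.6, 108 and 56.4 CPM, so its lowest KO+NM1 piece was 2.26 times the KO mean, and its log2 fold change was -1.69 (SE 0.28, edgeR adjusted p = 0.00337). Pdk2 had 18.3, 54.4 and 47.7 CPM against 51.7, 155, 233 and 116 CPM. These groups overlapped, because KO piece 02 exceeded KO+NM1 piece 01, and the log2 fold change was -1.79 (SE 0.55, edgeR adjusted p = 0.037). Pdk3 had 37.9, 29.9 and 30.3 CPM against 18.7, 7.20, 6.13 and 7.07 CPM. Every KO piece was above every KO+NM1 piece, with a log2 fold change of 1.74 (SE 0.42, edgeR adjusted p = 0.0125). Among the KO pieces, Pdk4 and Pdk2 were lowest in piece 01, as were 20 of all 35 members. That piece also had the lowest summed level of muscle markers (2671 CPM, against 22081 and 17662 CPM in KO pieces 02 and 03). It was lowest for white adipocyte markers as well (32.9 CPM, against 185 and 70.7 CPM), but not for keratinocyte or fibroblast markers. The part of muscle or of other tissues in these values was not tested.

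Per exon length the make-up of the kinase family changed as well. As a share of the summed RPKM (CPM per kilobase of exon) of the 4 kinases, Pdk3 made up 57.9%, 28.9% and 32.3% in the KO pieces and 14.9%, 2.27%, 0.989% and 3.41% in the KO+NM1 pieces. Pdk4 made up 9.77%, 21.5% and 17.8% against 38.9%, 50.7%, 62.8% and 42.4%. For both genes the groups were apart, in opposite directions. The share of Pdk2 was 35.5% ± 11.1 (SD, n = 3) and 37.1% ± 6.64 (SD, n = 4), and that of Pdk1 8.48% ± 1.38 and 8.79% ± 3.12. Both were within the spread between pieces.

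The 2 phosphatases that reactivate the complex showed no detectable difference. Pdp1 had 20.2, 21.2 and 21.2 CPM in the KO pieces and 15.9, 18.4, 19.9 and 24.4 CPM in the KO+NM1 pieces (log2 fold change 0.09, SE 0.18, edgeR adjusted p = 0.72). Pdp2 had 11.1, 7.47 and 8.16 CPM against 5.43, 5.66, 14.9 and 6.21 CPM (log2 fold change 0.15, SE 0.42, edgeR adjusted p = 0.793). The groups overlapped for both genes, and the sign of both depended on the scaling, with log2 fold changes of -0.0745 for Pdp1 and -0.0173 for Pdp2 under upper-quartile scaling.

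All 3 genes for pyruvate entry and carboxylation fell, with log2 fold changes of -2.59 to -4.02. Pcx, pyruvate carboxylase, which replenishes oxaloacetate, had 50.1, 57.8 and 48.5 CPM in the KO pieces and 186, 1048, 1305 and 850 CPM in the KO+NM1 pieces. Its KO+NM1 mean was 847 ± 478 CPM (SD, n = 4) against 52.1 ± 4.97 CPM (SD, n = 3), and the fitted level was 16.3-fold higher, a log2 fold change of -4.02 (SE 0.56, edgeR adjusted p = 0.00279). Mpc1 and Mpc2 form the carrier of the inner mitochondrial membrane. Mpc1 had 19.1, 25.1 and 23.0 CPM against 54.5, 131, 267 and 88.1 CPM (log2 fold change -2.59, SE 0.50, edgeR adjusted p = 0.00743). Mpc2 had 20.6, 29.9 and 25.3 CPM against 64.2, 213, 375 and 144 CPM (log2 fold change -2.97, SE 0.53, edgeR adjusted p = 0.00575). None of the 3 genes had a KO+NM1 piece in the KO range. Mpc1 shares 480 exon bases with 4930506C21Rik on the other strand, and its transcripts match the pseudogene Mpc1-ps at 99.7% identity over 330 bases, which had 276 counts over all pieces against 14248 for Mpc1.

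Of the 11 enzymes of the cycle among the members, 7 fell, none rose, and all 11 log2 fold changes were below 0. The called falls ran from -1.02 to -2.01 on the log2 scale. Sucla2, the ATP-forming beta subunit of succinyl-CoA ligase, had the largest, with 58.7, 85.5 and 82.5 CPM in the KO pieces and 124, 298, 608 and 190 CPM in the KO+NM1 pieces (log2 fold change -2.01, SE 0.52, edgeR adjusted p = 0.0204). Suclg1, the alpha subunit, had 74.6, 93.7 and 84.6 CPM against 116, 282, 584 and 181 CPM (-1.79, SE 0.51, edgeR adjusted p = 0.0296). Suclg2, the GTP-forming beta subunit, had 46.2, 47.3 and 47.8 CPM against 53.6, 104, 135 and 88.9 CPM (-1.02, SE 0.29, edgeR adjusted p = 0.0248). All 3 subunits of this enzyme were thus lower in every KO piece than in every KO+NM1 piece.

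Fh1, fumarate hydratase, had 62.7, 73.7 and 72.7 CPM in the KO pieces and 91.4, 186, 317 and 132 CPM in the KO+NM1 pieces (log2 fold change -1.38, SE 0.40, edgeR adjusted p = 0.0282). Dlst, the E2 core of the oxoglutarate dehydrogenase complex, had 165 ± 4.03 CPM (SD, n = 3) against 374 ± 176 CPM (SD, n = 4), a log2 fold change of -1.18 (SE 0.35, edgeR adjusted p = 0.0292). Its partner Ogdh, the E1 enzyme, had 269 ± 22.7 CPM against 621 ± 381 CPM, with a log2 fold change of -1.20 (SE 0.43) that missed the threshold (edgeR adjusted p = 0.0581) although the groups did not overlap. The regulatory subunits of NAD-dependent isocitrate dehydrogenase, Idh3b and Idh3g, fell close to the threshold, by 1.24 (SE 0.40, edgeR adjusted p = 0.0404) and 1.14 (SE 0.39, edgeR adjusted p = 0.0485) on the log2 scale. The catalytic subunit Idh3a had 135, 126 and 123 CPM in the KO pieces and 107, 341, 666 and 237 CPM in the KO+NM1 pieces. Here KO+NM1 piece 01 was below all KO pieces, and the gene was not called (log2 fold change -1.40, SE 0.54, edgeR adjusted p = 0.0752).

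The enzymes at both ends of the cycle had the smallest differences. Cs, citrate synthase, had 445, 415 and 408 CPM in the KO pieces and 313, 697, 1189 and 512 CPM in the KO+NM1 pieces (log2 fold change -0.68, SE 0.42, edgeR adjusted p = 0.223). Mdh2, the mitochondrial malate dehydrogenase, had 344, 321 and 336 CPM against 208, 454, 708 and 308 CPM (log2 fold change -0.33, SE 0.39, edgeR adjusted p = 0.519). Both were lowest of all 7 pieces in KO+NM1 piece 01. Without that piece the log2 fold change of Cs was -1.05 (edgeR adjusted p = 0.0166) and that of Mdh2 -0.69 (edgeR adjusted p = 0.0663).

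**Figure D2:**
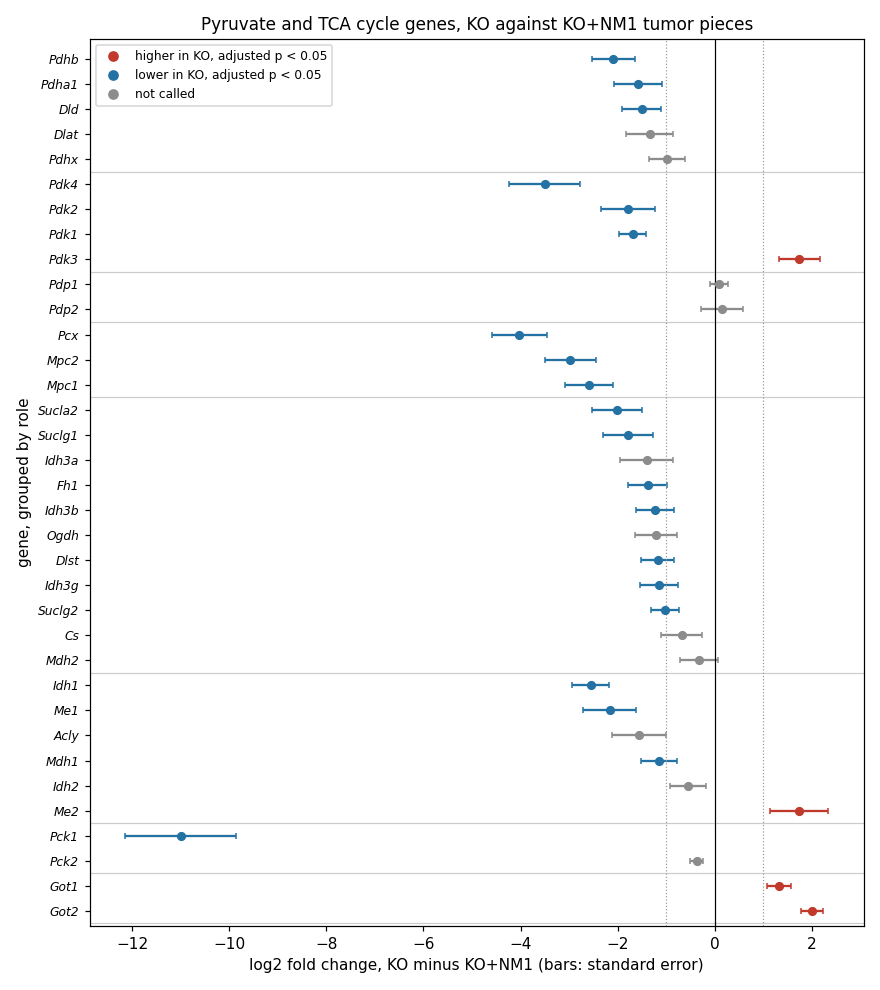
Log2 fold change of each of the 35 genes, KO minus KO+NM1, from edgeR, with bars of 1 SE and colors for the call at an adjusted p under 0.05. The 20 called falls run from -11.00 for Pck1 to -1.02 for Suclg2, and the 4 called rises from 1.32 for Got1 to 2.00 for Got2.

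Among the NADP-linked and cytosolic enzymes, 3 of 6 fell, 1 rose and 2 were not called. Idh1, the cytosolic isocitrate dehydrogenase that yields NADPH, had 50.3, 44.2 and 48.0 CPM in the KO pieces and 113, 335, 384 and 285 CPM in the KO+NM1 pieces (log2 fold change -2.55, SE 0.38, edgeR adjusted p = 0.00264). Idh2, its mitochondrial counterpart, had 167, 137 and 134 CPM against 98.2, 244, 323 and 198 CPM. It was not called (log2 fold change -0.56, SE 0.37, edgeR adjusted p = 0.248), and 1 KO+NM1 piece, 01, was below the KO range. Mdh1, the cytosolic malate dehydrogenase of the malate-aspartate shuttle, had 187 ± 5.19 CPM (SD, n = 3) against 414 ± 188 CPM (SD, n = 4), a log2 fold change of -1.15 (SE 0.37, edgeR adjusted p = 0.0387).

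The malic enzymes, which turn malate into pyruvate, moved in opposite directions. Me1, the cytosolic NADPH-forming enzyme, had 112, 119 and 116 CPM in the KO pieces and 136, 558, 945 and 440 CPM in the KO+NM1 pieces (log2 fold change -2.16, SE 0.55, edgeR adjusted p = 0.02). Me2, the mitochondrial NAD-linked enzyme, had 113, 78.6 and 81.9 CPM against 64.9, 15.5, 13.3 and 15.3 CPM (log2 fold change 1.74, SE 0.60, edgeR adjusted p = 0.0459). KO+NM1 piece 01 stood close to the KO pieces for both genes. Without it the log2 fold change of Me1 was -2.61 (edgeR adjusted p = 0.000217) and that of Me2 2.50 (edgeR adjusted p = 1.94e-05). The call of Me2 was lost in 9 of the 17 alternatives that kept the test against no change. Acly, ATP citrate lyase, which supplies cytosolic acetyl-CoA for lipid synthesis, had 476, 340 and 344 CPM against 450, 885, 2457 and 791 CPM. Its groups overlapped and it was not called (log2 fold change -1.57, SE 0.56, edgeR adjusted p = 0.0587).

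The largest difference was in Pck1, the cytosolic phosphoenolpyruvate carboxykinase of gluconeogenesis and of glyceroneogenesis in fat. Its raw counts were 1, 67 and 6 in the KO pieces and 9136, 60697, 52124 and 39214 in the KO+NM1 pieces. These are 0.0333, 2.33 and 0.198 CPM against 333, 2469, 2575 and 1612 CPM, so the groups were separated by over 2 orders of magnitude. The log2 fold change was -11.00 (SE 1.15, edgeR adjusted p = 0.00245), and it was -13.94 without KO piece 02 (edgeR adjusted p = 0.00385), the KO piece with most counts. KO piece 02 also had the highest summed level of white adipocyte markers among the KO pieces (185 CPM, against 32.9 and 70.7 CPM), and KO+NM1 piece 01, the lowest for Pck1, the lowest among the KO+NM1 pieces (3970 CPM, against 30459, 29674 and 21647 CPM). Among the KO pieces, piece 02 was also highest for skeletal muscle, keratinocyte and mammary epithelium markers, though not for fibroblast or macrophage markers. The part of fat or of other tissues in the level of Pck1 was not tested. Pck2, the mitochondrial isoform, had 41.0, 41.0 and 41.5 CPM in the KO pieces and 56.2, 55.6, 44.1 and 57.3 CPM in the KO+NM1 pieces. Every KO piece was below every KO+NM1 piece, yet the difference was small and missed the threshold (log2 fold change -0.37, SE 0.13, edgeR adjusted p = 0.0534).

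Both aspartate aminotransferases, which exchange amino groups between aspartate and glutamate in the malate-aspartate shuttle, rose. Got2, the mitochondrial isoform, had 298, 260 and 257 CPM in the KO pieces and 91.8, 58.7, 49.8 and 72.0 CPM in the KO+NM1 pieces. Its log2 fold change of 2.00 (SE 0.22) had the lowest adjusted p of all members (edgeR adjusted p = 0.000811). Got1, the cytosolic isoform, had 60.7, 59.8 and 68.6 CPM against 37.2, 19.2, 21.4 and 23.6 CPM (log2 fold change 1.32, SE 0.24, edgeR adjusted p = 0.00419). Neither gene had overlapping groups, and KO+NM1 piece 01 was the KO+NM1 piece nearest the KO pieces for both. Got1 is the gene with 5 CCAAT matches in the run printed above. The window of Got2 held no CCAAT match, and windows of members that fell, among them Pdk4, Pcx and Mpc1, did. Transcripts of Got2 match the pseudogene Gm10874 at 98.8% identity over 1637 bases, and Gm10874 had 45 counts over all pieces against 30939 for Got2.

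Isoforms of the same reaction were then compared within each piece, as the log2 ratio of counts per exon length, which does not depend on the scaling between libraries. In 7 of 9 pairs the groups did not overlap, 6 with the ratio lower in the KO pieces and 1 with it higher. The share among ratios of other gene pairs was not computed, while among single genes tested 57.0% did not overlap. The ratio of cytosolic to mitochondrial isoform was lower in the KO pieces for all 5 such pairs. Idh1/Idh2 had log2 ratios of -1.83, -1.73 and -1.58 in the KO pieces and 0.11, 0.36, 0.15 and 0.43 in the KO+NM1 pieces, a difference of -1.98. The isoform with the higher level thus changed, from Idh2 in all KO pieces to Idh1 in all KO+NM1 pieces. Mdh1/Mdh2 had -0.37, -0.33 and -0.40 against 0.41, 0.51, 0.33 and 0.63, a difference of -0.84 with a change of order after scaling to exon length. In raw counts Mdh2 was the higher gene in KO+NM1 pieces 01 (5707 against 5470) and 03 (14337 against 13013). Mdh1 was the higher in pieces 02 (11491 against 11162) and 04 (8378 against 7494). Which isoform was higher in the KO+NM1 pieces thus rests on the exon lengths.

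Me1/Me2 had 0.91, 1.52 and 1.41 against 1.98, 6.08, 7.06 and 5.75, a difference of -3.94. Per exon length Me1 was the higher isoform in every piece, although in raw counts KO piece 01 had 3375 for Me1 and 3376 for Me2. KO+NM1 piece 01 was nearer the KO pieces than the other KO+NM1 pieces. For Got1/Got2 the ratios were -1.37, -1.19 and -0.98 against -0.38, -0.69, -0.29 and -0.68, a difference of -0.67 although both genes rose. The ratio Pck1/Pck2 had the largest difference, -11.82, with -8.49, -2.94 and -6.41 against 3.75, 6.66, 7.05 and 6.0. Suclg2/Sucla2 was the pair with a higher ratio in the KO pieces, -0.56, -1.07 and -1.0 against -1.42, -1.73, -2.38 and -1.31. Among the kinases, Pdk2/Pdk3 differed by -3.63 without overlap, whereas Pdk4/Pdk1 differed by -1.63 with overlapping groups. For the phosphatase pair Pdp1/Pdp2 the difference was -0.16 with overlap.

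Over these 9 pairs, 0 passed an adjusted p under 0.05, which 3 pieces against 4 cannot reach. The 7 pairs without overlap had p = 0.0571 in a two-sided exact permutation test, the smallest that the 35 splits allow, and 0.0735 after Benjamini-Hochberg adjustment. For Pdk4/Pdk1 the exact p was 0.114 (adjusted 0.129) and for Pdp1/Pdp2 it was 0.686 (adjusted 0.686).

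**Figure D3:**
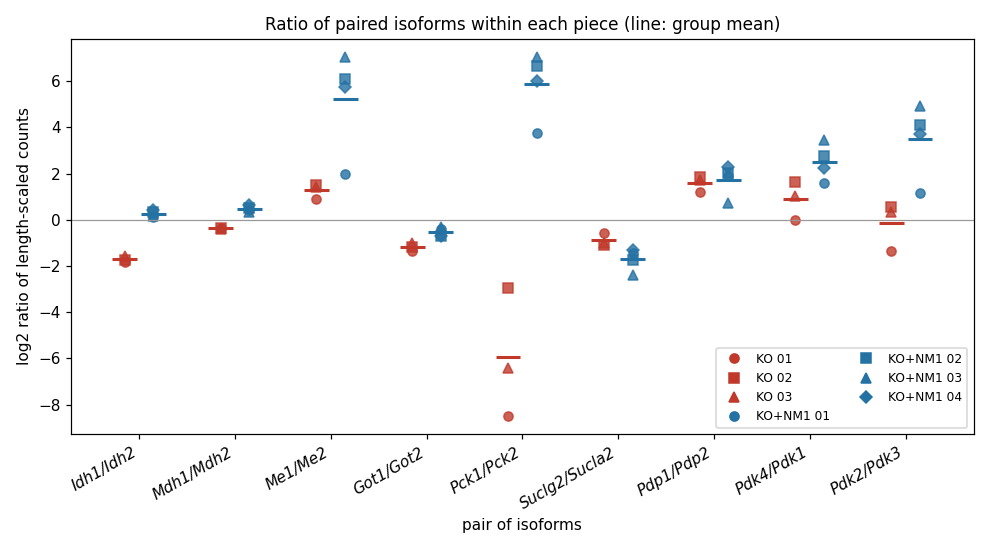
Log2 ratio of counts per exon length for 9 pairs of isoforms in each piece, with a line at the mean of each group. In 7 pairs the 3 KO and the 4 KO+NM1 pieces do not overlap, and for Idh1/Idh2 and Mdh1/Mdh2 they lie on opposite sides of 0.

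Ranked by RPKM, the most abundant of the 35 transcripts in the KO pieces was Mdh2 (93.7 ± 3.26 RPKM, SD, n = 3), followed by Acly (73.2 ± 14.6), Cs (73.1 ± 3.42) and Mdh1 (72.7 ± 2.02). The last 3 differed by less than the spread of Acly between pieces. In the KO+NM1 pieces Pck1 was first (510 ± 302 RPKM, SD, n = 4), followed by Acly (217 ± 169), Pcx (178 ± 101) and Mdh1 (161 ± 73.3), and neighbours in this order overlapped within their SD. Pck1 was the last of the 35 in the KO pieces (0.249 ± 0.373 RPKM), and Pcx was at rank 25. Got2 went the other way, from rank 7 in the KO pieces (56.4 ± 4.69 RPKM) to rank 28 in the KO+NM1 pieces (14.1 ± 3.78 RPKM). These ranks depend on the exon lengths used. By CPM the highest in the KO pieces were Cs (423 ± 19.8 CPM), Acly (387 ± 77.3 CPM) and Mdh2 (334 ± 11.6 CPM).

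The KO pieces were much alike for these genes and the KO+NM1 pieces were not. The median coefficient of variation over the 35 genes was 8.33% between the KO pieces and 55.4% between the KO+NM1 pieces. The libraries as a whole also differed more among KO+NM1 pieces. Over genes of 20 or more counts, the chi-square per degree of freedom was 35.2 to 101 between KO pieces and 39.0 to 687 between KO+NM1 pieces. The order of pieces given next was not counted over all genes. In 28 of 35 genes, including all 20 that fell, the KO+NM1 pieces had the same order, 03 highest, then 02, 04 and 01. The ratio of the level in piece 03 to that in piece 01, taken gene by gene, had a median of 3.47 over all members and of 4.33 over the 20 that fell. Mitochondrially encoded transcripts followed the same order, at 18.5%, 10.5%, 7.77% and 5.11% of counts in pieces 03, 02, 04 and 01. The summed brown adipocyte markers were also highest in piece 03 (2878 CPM, against 323, 645 and 282 CPM in pieces 01, 02 and 04), with 3 of 5 markers lower in the KO pieces and Ucp1, which defines brown fat, at 191, 325, 1775 and 130 CPM in pieces 01 to 04. KO+NM1 piece 01 was the one with B and plasma cell transcripts, at 2779 CPM over 4 markers against 2.51 to 10.8 CPM in the other KO+NM1 pieces, and edgeR called none of these 4 markers (lowest unadjusted p = 0.0915). Their part in the spread of the members was not tested. Of the 35 genes, 23 were above the KO range in KO+NM1 piece 01, 2 were within it and 10 were below it. These 23 are the genes already counted as lower in every KO piece than in every KO+NM1 piece. The position of piece 01 was not counted over all genes. Leaving out both pieces 01 and 03, chosen after seeing the data, gave 27 members called by both criteria. Over all genes, the adjusted p alone called 11651 of 17275 in that fit, against 8477 of 16887 with all pieces.

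**Figure D4:**
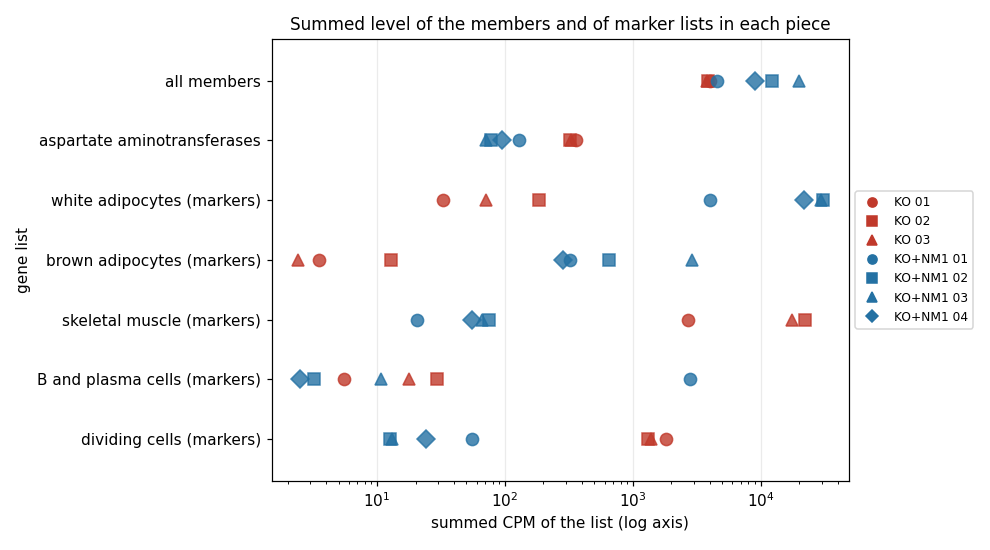
Summed level of the 35 genes and of marker lists of cell types in each piece, in CPM on a log axis. The 35 genes sum to 3810 to 3968 CPM in the KO pieces and to 4524, 12115, 19735 and 9015 CPM in KO+NM1 pieces 01 to 04, while the lists of white adipocytes and skeletal muscle lie far apart in opposite directions.

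Other genes of the same pathway, 45 in a list drawn up by function, went largely the same way. Of the 44 tested, 24 fell, 6 rose and 14 were not called at an edgeR adjusted p under 0.05, beside 24.5% lower and 25.7% higher among all genes, and their median log2 fold change was -1.27. Slc25a21 was not tested. Among 9 genes of steps that the 35 genes leave out, Aco1 and the subunits and assembly factors of succinate dehydrogenase, 5 fell and none rose. Aco1, the cytosolic aconitase, fell by 1.69 (SE 0.41, edgeR adjusted p = 0.0159) on the log2 scale. Sdha, the flavoprotein subunit of succinate dehydrogenase, had 241 ± 6.74 CPM (SD, n = 3) against 686 ± 361 CPM (SD, n = 4), a log2 fold change of -1.51 (SE 0.39, edgeR adjusted p = 0.02). Sdhb, the iron-sulfur subunit, and Sdhc, a membrane anchor, fell by 1.27 (edgeR adjusted p = 0.0429) and 1.45 (edgeR adjusted p = 0.0268), and the assembly factor Sdhaf1 by 1.51 (edgeR adjusted p = 0.00703). Not called were the anchor Sdhd, with a log2 fold change of -1.06 (SE 0.40, edgeR adjusted p = 0.0702), and the assembly factors Sdhaf2 (-0.20), Sdhaf3 (-0.94) and Sdhaf4 (-0.43).

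The largest falls elsewhere in the list were of Slc25a1 and Ldhb. Slc25a1, the mitochondrial citrate carrier, had 51.1 ± 1.23 CPM (SD, n = 3) against 622 ± 387 CPM (SD, n = 4) (log2 fold change -3.61, SE 0.52, edgeR adjusted p = 0.00291). Ldhb, the lactate dehydrogenase subunit of oxidative tissues, had 20.5, 20.4 and 18.3 CPM against 65.8, 261, 451 and 181 CPM (log2 fold change -3.60, SE 0.55, edgeR adjusted p = 0.00364). The largest rises were of Ogdhl and Slc16a3, both without overlap. Ogdhl, a relative of the E1 subunit Ogdh, had 6.61 ± 1.80 CPM (SD, n = 3) against 0.173 ± 0.0844 CPM (SD, n = 4), close to the limit for a count of 0, with a log2 fold change of 5.21 (SE 0.43, edgeR adjusted p = 0.000403). Slc16a3, a lactate exporter of the plasma membrane, had 75.7, 35.0 and 46.4 CPM against 6.46, 3.74, 2.22 and 3.33 CPM (log2 fold change 3.73, SE 0.41, edgeR adjusted p = 0.0009). The other 4 rises, with log2 fold changes of 1.02 to 2.93, were of the aspartate-glutamate carriers Slc25a12 and Slc25a13, the pyruvate kinase Pkm and the phosphatase regulator Pdpr.

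**Figure D5:**
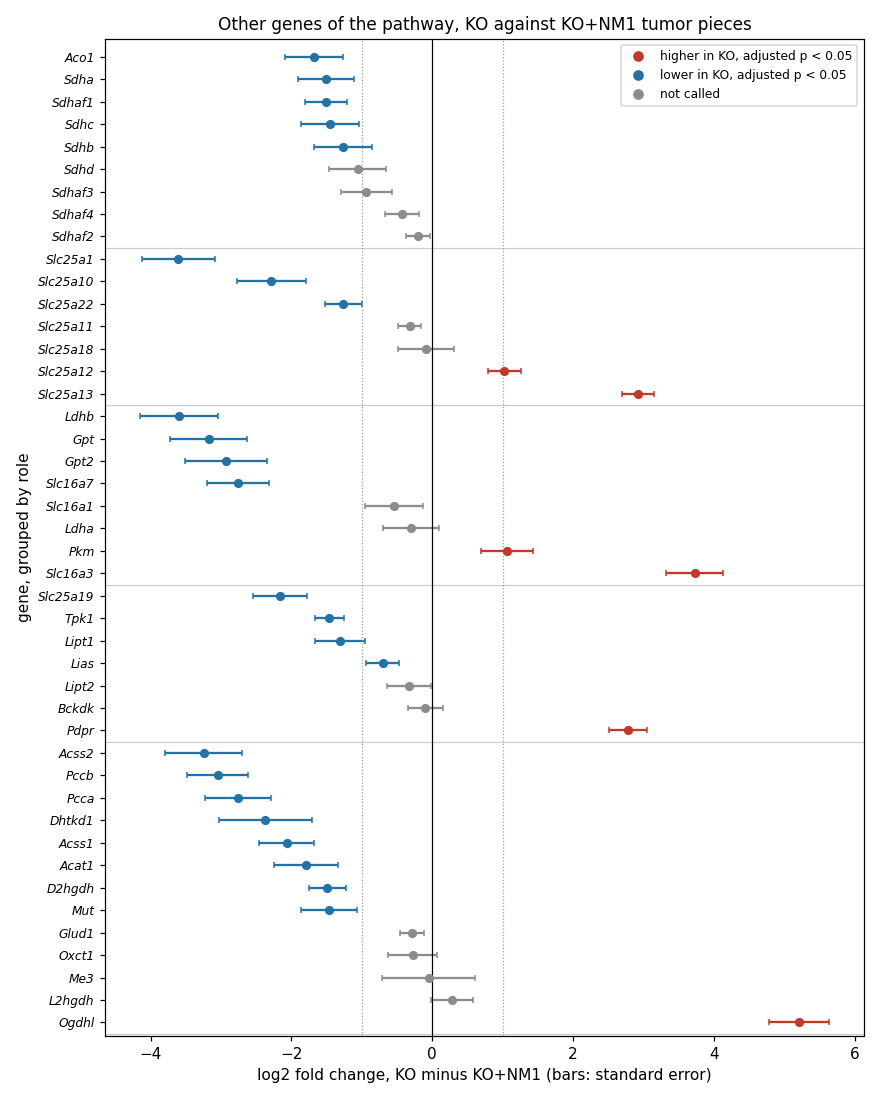
Log2 fold change, KO minus KO+NM1, of the 44 other pathway genes tested, with bars of 1 SE and colors for the call at an edgeR adjusted p under 0.05. There are 24 called falls, down to -3.61 for Slc25a1, and 6 called rises, up to 5.21 for Ogdhl.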

How the data were processed

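RNA from 3 pieces of KO tumor and 4 pieces of KO+NM1 tumor was sequenced after NEBNext Ultra II library preparation. Reads had been trimmed by the authors (Trimmomatic 0.36), mapped to the mouse build GRCm38 (HISAT2 2.0.4), sorted (SAMtools 0.1.19) and assigned to genes (HTSeq-count). The annotation release and the strand option are not given in the sources used here. The deposited values are raw read counts per Ensembl gene, without normalization, and groups follow the sample titles. Symbols and union exon lengths were taken from GENCODE M21, and 46091 of 46603 identifiers had a symbol.

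Counts were analysed in R 4.3.3 with edgeR 4.0.16 (filterByExpr with a minimum count of 10, TMM, quasi-likelihood test, Benjamini-Hochberg adjustment over 16887 genes). Calls used an adjusted p under 0.05, with and without a 2-fold change. The biological coefficient of variation was 46.7%. Isoform ratios used counts plus 0.5 per exon length and a two-sided exact permutation test over 35 splits. Alternatives were 3 other scalings, 2 other filters, mitochondrially encoded genes left out, DESeq2 1.42.0, voom of limma 3.58.1, glmTreat, a replicate block and the omission of single pieces. Only the main edgeR fit was checked on simulated counts, and the other steps were not. No library repeated another of its group (chi-square per degree of freedom of 35.2 to 687 for genes of 20 or more counts).

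All 35 members are accounted for by role, with full statistics for those called. Of the other pathway genes, the aconitase and succinate dehydrogenase genes and the 2 largest called falls and rises are named, and some pathway genes are not reported here. The members, lists and rules were chosen with earlier results of these data known. Summed levels of the marker lists not printed in the report were, in the KO and the KO+NM1 pieces, 7.43 to 1065 and 60.0 to 440 CPM for keratinocytes (4 of 5 tested and none called by edgeR, lowest unadjusted p = 0.0596), 3.67 to 65.6 and 405 to 1733 CPM for mammary epithelium (3 lower), 824 to 916 and 321 to 471 CPM for macrophages (4 higher and 1 lower), 161 to 180 and 878 to 1159 CPM for endothelial cells (5 lower), and 17.8 to 28.0 and 201 to 764 CPM for erythroid cells (3 lower).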

Additional observations from a re-analysis of the deposited data

Results flagged for a closer look

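In the 4 KO+NM1 pieces, 57 values were checked for 1 piece far from the other 3 by Dixon's ratio (the gap to the nearest piece over the whole range, on the log2 CPM scale), and 4 exceeded its 95% critical value. Chance marks about 1 in 20. Piece 01 stood apart, above the others, for Pdk3 (ratio 0.856, 18.7 CPM against 6.13 to 7.20 CPM) and for Me2 (ratio 0.904, 64.9 CPM against 13.3 to 15.5 CPM). Both are genes that rose in the KO pieces, and in both piece 01 was the KO+NM1 piece nearest to them. Piece 03 stood apart for Pdp2 (ratio 0.869, 14.9 CPM against 5.43 to 6.21 CPM), above the others, and for Pck2 (ratio 0.887, 44.1 CPM against 55.6 to 57.3 CPM), below them.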

How the results depend on the processing

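No called member changed direction under any alternative, and 24 members were called by both criteria with 9 to 30 across alternatives. The call count fell to 9 with glmTreat, which tests against a 2-fold change itself, and ranged from 10 to 30 with 1 piece left out. By the adjusted p alone, 24 members were called and 10 to 32 with 1 piece left out, and for the other pathway genes 30 and 19 to 38. Over all genes that count was 8477, and 6163 to 11937 with 1 piece left out, while glmTreat called 3781. Fitting the piece number as a replicate block gave 14 members by both criteria, 14 by the adjusted p alone and 18 other pathway genes. Over all genes the block gave 5699 by the adjusted p alone. The numbers were not shown to pair the pieces, since the correlations of deviations between same-numbered pieces were 0.080, 0.102 and -0.017, and not every piece correlated best with its own number. Signs changed only in values near 0 that were not called. For Pdp1 the log2 fold change was -0.0164 with DESeq2 size factors, -0.0745 with the upper quartile, -0.0133 with every gene of at least 1 count, -0.0157 with the DESeq2 test, -0.16 without KO+NM1 pieces 01 and 03 (chosen after seeing the data) and -0.13 to 0.19 with 1 piece left out. For Pdp2 it was -0.0173 with the upper quartile and -0.16 to 0.61 with 1 piece left out. For Mdh2 the range with 1 piece left out was -0.69 to 0.0269, above 0 without KO+NM1 piece 03, and for the ratio Pdp1/Pdp2 -0.49 to 0.0315, above 0 without KO piece 01 or KO+NM1 piece 04. The cause was not tested. The median log2 fold change of all genes moved to 0.17 with library size alone and to -0.16 with the upper quartile. With a pseudocount of 2, 0 ratios passed, as before, and leaving out pieces was not run as a test of the ratios, since it cannot reach the threshold.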
